A study of Mus musculus with 12 samples.

Results

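CD4+ T cells of mice without Sirt2 (Sirt2-/-, called KO) were measured directly after isolation (KO 0 h) and after 24 h on plate-bound antibody to CD3 (KO 24 h), and the 2 states are compared here. The members were the 3 libraries titled as Sirt2 KO cells at 24 h and the 3 titled as Sirt2 KO cells at 0 h, which made 6 of the 12 libraries of the series. The other 6 were wild-type libraries (WT, C57BL/6J mice) at the same 2 times and are used only where the responses of the genotypes are set side by side. Per the labels, all cells came from spleens of mice on a C57BL/6 background and were enriched for CD4+ T cells by removing other cells, with a purity above 95% by flow cytometry. The 24 h cells were kept in RPMI 1640 with 10% fetal bovine serum on clone 145-2C11 at 5 µg/ml, while the 0 h cells went straight to RNA extraction. The labels name no costimulating antibody, and they give no sex or age. They do not say whether the KO mice lack Sirt2 in all cells or which part of the gene was removed. No group kept in culture without the antibody is analysed here, so the effects of anti-CD3, of culture and of 24 h outside the animal cannot be told apart in any value below. The labels call the 0 h cells naive, but a CD4+ enrichment also holds memory and regulatory T cells.

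The T cell receptor is a heterodimer that signals through the CD3 chains, and antibody to CD3 bound to plastic crosslinks the complex without antigen. Signalling through Lck, Zap70 and the adaptors Lat and Lcp2 is known to induce immediate-early genes within minutes and then transcription factors, cytokines, the high-affinity interleukin 2 receptor and the genes that supply amino acids, nucleotides and ribosomes for growth, while genes that keep naive cells at rest and let them recirculate are shut off. Sirt2 encodes a mostly cytosolic NAD-dependent deacetylase whose known substrates include alpha-tubulin and several metabolic enzymes.

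The question was which RNAs changed in Sirt2-deficient cells between 0 h and 24 h. Chemokine, cytokine, amino acid supply, interferon-stimulated, ribosome assembly and proteasome genes were higher at 24 h. The immediate-early genes Fos, Fosb, Jun and Junb were lower, as were the CD3 chain genes Cd3e and Cd3g, homing receptors, histones and mitosis genes. Reads were counted per gene, and levels are given as CPM, the read count divided by the library size in megareads after TMM scaling. CPM is not divided by gene length and so allows no comparison of levels between genes. The test was edgeR's quasi-likelihood (QL) test, and passing meant a Benjamini-Hochberg (BH) adjusted p under 0.05 over the 10981 genes that entered it. Of these, 4435 passed (40.4%), 2129 of them higher at 24 h (19.4%) and 2306 lower (21.0%). With a log2 fold change of at least 1 besides, 657 were higher (5.98%) and 815 lower (7.42%), so 66.8% of the genes that passed changed by less than that. The 3 libraries of each time did not overlap for 5428 of the tested genes (49.4%) and for 4195 of the 4435 that passed. These shares are the background for every list below, as is the median log2 fold change of all tested genes, -0.0028. Scaling by library size alone, without TMM factors, moved that median to 0.238 and gave 3709 higher and 1402 lower, so the split by direction and small changes rest on the scaling, and the changes below are relative to the bulk of genes.

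**Figure D1:**
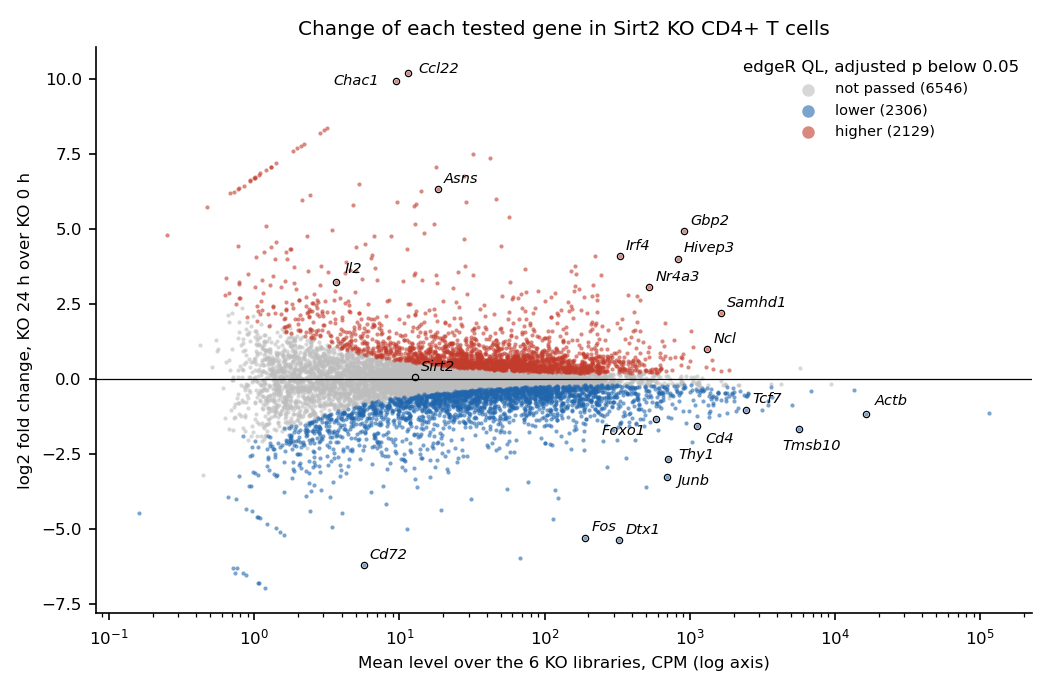
Each point is 1 of the 10981 tested genes, with its mean level over the 6 KO libraries in CPM on a log axis and its fitted log2 fold change at 24 h over 0 h. Red points are the 2129 genes that passed as higher, blue points the 2306 that passed as lower and grey points the others. Circles mark labelled genes, among them Gbp2, Hivep3 and Samhd1 above the line and Fos, Dtx1 and Actb below it.

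Reads in genes came to 5.78 to 10.0 megareads per KO 0 h library and 3.63 to 5.33 megareads per KO 24 h library. The ribosomal RNA gene Rn45s took 14.7% ± 2.51 (SD, n = 3) of them at 0 h and 8.03% ± 0.106 (n = 3) at 24 h, with no overlap (two-sided exact permutation test p = 0.1, the smallest that 3 against 3 allows). Counting left out reads aligned to several places, 29.9% ± 0.520 (n = 3) of all reads listed at 0 h and 26.3% ± 0.613 (n = 3) at 24 h. The first principal component separated the times and held 68.7% of the variance, and no library stood apart from its group on it. Each pair of replicate libraries differed by more than counting noise. Whether replicates came from separate mice is not in the labels, so the p-values rest on a spread between libraries that may be technical only. Sirt2 itself measured 12.1, 9.04 and 16.2 CPM at 0 h and 9.52, 10.5 and 19.7 CPM at 24 h and did not differ past the threshold (log2 0.06, edgeR QL, BH-adjusted p = 0.869). It lay at 67.9 to 85.4 CPM at 0 h and 62.3 to 76.3 CPM at 24 h in WT, above every KO library. Which exons the reads left in KO come from cannot be seen in counts per gene. Where a share of exon length in common with another gene is given below, reads of the 2 genes cannot be told apart, because no strand setting is stated.

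Markers of the cells that the enrichment should have removed were low and mostly fell. Of 11 B cell markers in the files, 4 were tested and 3 of them passed as lower, while 1 went the other way without passing (log2 1.85). The summed level of the 11 was 17.2 to 31.3 CPM at 0 h and 4.58 to 10.7 CPM at 24 h. Cd79a, part of the B cell receptor, measured 11.7, 14.4 and 14.5 CPM at 0 h and 2.56, 1.75 and 3.98 CPM at 24 h (log2 fold change -2.32, SE 0.327, edgeR QL, BH-adjusted p = 1.00e-07). Without KO 0 h replicate 3, without KO 24 h replicate 1 or with limma-voom 1 B cell marker passed. Of 13 myeloid markers, 3 had no read in any KO library, 5 were tested and 3 were lower (1 without KO 24 h replicate 1). The highest log2 of the 5, in a marker that did not pass, was 1.00. The sum of the 13 was 26.1 to 30.3 CPM at 0 h and 7.96 to 18.5 CPM at 24 h. Cd8b1, a chain of the CD8 coreceptor, measured 30, 30.8 and 33.5 CPM at 0 h and 8.6, 14.5 and 12.2 CPM at 24 h (log2 -1.41, edgeR QL, BH-adjusted p = 8.48e-08), while Cd8a was not among the genes tested. Of 7 NK cell markers, 2 had no read and 3 were tested. Their sum was 54.6 to 65.3 CPM at 0 h and 60.7 to 68.5 CPM at 24 h, with Eomes, which T cells also use, higher and the NK receptor genes Klrb1c and Klrd1 lower. Without Eomes it was 32.0 to 42.7 CPM at 0 h and 3.84 to 4.76 CPM at 24 h. Of 8 dendritic cell markers 2 had no read, and the sum was 3.32 to 4.90 CPM at 0 h and 4.73 to 6.22 CPM at 24 h. Of 10 red cell and platelet markers 9 had no read, and the sum was 2.45 to 3.43 CPM and 1.24 to 2.56 CPM. In each of these 2 lists 1 gene was tested and did not pass. In bulk libraries fewer cells of a type and less RNA per cell cannot be told apart, and the part of these cells in the results below was not tested.

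The CD3 chain genes Cd3g and Cd3e and the T cell surface genes Cd4 and Thy1 were lower after 24 h on anti-CD3. The alpha and beta chains of the receptor are not reported here, and 22 of the 25 list members were in the files. Of 22 tested members of the list of T cell receptor components and proximal signalling genes, 12 fell and 4 rose, with a median log2 fold change of -0.65. Cd4, the coreceptor that defines the population, measured 1843, 1639.6 and 1557 CPM at 0 h and 516, 681 and 495 CPM at 24 h (log2 fold change -1.57, SE 0.101, edgeR QL, BH-adjusted p = 4.16e-17), and every 24 h library lay below every 0 h library. Thy1, the surface glycoprotein CD90 carried by all mouse T cells, measured 1293, 1137 and 1244 CPM at 0 h and 172, 217 and 193 CPM at 24 h (log2 fold change -2.66, SE 0.0939, edgeR QL, BH-adjusted p = 4.29e-27). The CD3 chains moved unequally. Cd3g measured 503, 492 and 457 CPM at 0 h and 167, 184 and 167 CPM at 24 h (log2 fold change -1.49, SE 0.0831, edgeR QL, BH-adjusted p = 9.41e-20). Cd3e measured 2744, 2376 and 2335 CPM at 0 h and 1030.0, 1244 and 1141 CPM at 24 h (log2 -1.13, edgeR QL, BH-adjusted p = 3.02e-14), with separate groups for both. Cd247, the zeta chain, measured 466, 476 and 451 CPM at 0 h and 446, 480.0 and 463 CPM at 24 h and did not pass (log2 -0.00, edgeR QL, BH-adjusted p = 0.98), and it passed as higher with library size alone. Its exons are shared for 60.3% of their length with other genes. Members that rose encode signalling proteins downstream of the receptor. The adaptor gene Lcp2 (SLP-76) measured 568, 570.5 and 525 CPM at 0 h and 913, 871 and 903 CPM at 24 h (log2 fold change 0.69, SE 0.0832, edgeR QL, BH-adjusted p = 2.51e-09). The Ras activator gene Rasgrp1 measured 579.9, 601 and 589 CPM at 0 h and 978, 957 and 1019 CPM at 24 h (log2 0.74, edgeR QL, BH-adjusted p = 5.25e-10). Prkcq, protein kinase C theta, had a smaller rise (log2 0.31). With library size alone 8 members of the list were higher, so the smaller rises depend on the scaling. Ptprc, the phosphatase CD45, measured 1099.9, 1111 and 1032 CPM at 0 h and 1215, 1109 and 1134 CPM at 24 h and did not pass (log2 0.09, edgeR QL, BH-adjusted p = 0.398).

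Immediate-early genes fell as a group, with 13 of 21 tested members lower, 6 higher and a median of -1.18. The freshly isolated cells held the high levels. Fos, a subunit of the AP-1 transcription factor, measured 340.1, 358 and 410.1 CPM at 0 h and 7.69, 9.09 and 11.9 CPM at 24 h (log2 fold change -5.29, SE 0.131, edgeR QL, BH-adjusted p = 6.27e-33). Fosb measured 210.0, 242 and 207 CPM at 0 h and 8.24, 9.26 and 8.21 CPM at 24 h (log2 fold change -4.67, SE 0.143, edgeR QL, BH-adjusted p = 2.29e-29). Junb measured 1307, 1251 and 1209 CPM at 0 h and 129.6, 133 and 129 CPM at 24 h (log2 fold change -3.27, SE 0.106, edgeR QL, BH-adjusted p = 1.75e-28). In none of these did the times overlap, and the spread within a time was small beside the difference. Jun went the same way with 758, 664 and 613 CPM at 0 h and 151, 179 and 165 CPM at 24 h (log2 -2.04, edgeR QL, BH-adjusted p = 1.87e-16). Dusp1, a phosphatase that switches off MAP kinases, measured 923, 930.5 and 895 CPM at 0 h and 81.5, 68.7 and 78.9 CPM at 24 h (log2 fold change -3.59, SE 0.0948, edgeR QL, BH-adjusted p = 7.88e-32). Ppp1r15a, which directs dephosphorylation of eIF2alpha, measured 531, 480.1 and 415 CPM at 0 h and 57.8, 63.6 and 63.7 CPM at 24 h (log2 -2.95, edgeR QL, BH-adjusted p = 3.84e-27). The 6 that rose included genes that are known targets of receptor signals. Egr1 measured 488, 424 and 434 CPM at 0 h and 1026, 1143 and 1180.4 CPM at 24 h (log2 1.31, edgeR QL, BH-adjusted p = 1.22e-15). The orphan nuclear receptor gene Nr4a1 measured 287, 290.2 and 293 CPM at 0 h and 1006, 1019.8 and 1137 CPM at 24 h (log2 fold change 1.86, SE 0.0965, edgeR QL, BH-adjusted p = 6.06e-21). The stress factor gene Atf3 measured 0.751, 0.161 and 1.13 CPM at 0 h and 23.1, 25.5 and 26.1 CPM at 24 h (log2 5.17), from near nothing, and Gadd45b rose by 1.08. Arc measured 11.3, 12.6 and 13.7 CPM at 0 h and 10.3, 13.3 and 13.7 CPM at 24 h, with overlapping times, and did not pass (log2 -0.01, edgeR QL, BH-adjusted p = 0.976). Zfp36l1, an RNA-decay factor whose exons are shared with Gm26669 for 55.9% of their length, did not pass either (log2 -0.22). The same directions were found in WT cells, where the log2 fold change was -5.26 for Fos, -3.17 for Junb and 1.72 for Nr4a1.

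The cAMP response element, spelled TGACGTCA, reads the same on both strands and was searched in the 250 bases before the gene start (RefSeq, build GRCm38.p6). It was found before 3 of 16 tested immediate-early genes with a promoter sequence, against 2.99% of all tested genes with one, and the 3 genes, Dusp1, Btg2 and Ppp1r15a, all fell. The Dusp1 promoter (chr17:26508473-26508722, minus strand) is shown because it held the element, and the capitals mark it and, after it, an E-box (CACGTG, likewise the same on both strands and held by 8.82% of all tested genes with a promoter). A match describes letters only.
Dusp1: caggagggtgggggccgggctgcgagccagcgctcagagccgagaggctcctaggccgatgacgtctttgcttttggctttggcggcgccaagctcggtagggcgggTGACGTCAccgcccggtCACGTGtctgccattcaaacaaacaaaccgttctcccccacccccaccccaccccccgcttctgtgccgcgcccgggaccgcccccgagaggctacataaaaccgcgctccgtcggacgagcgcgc

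The transcription factors that T cell receptor signals are known to induce over hours were higher. Of 26 tested members of that list 19 rose and 4 fell, with a median of 0.92. Irf4, which scales with receptor signal strength, measured 32.6, 35.3 and 41 CPM at 0 h and 587, 644 and 634 CPM at 24 h (log2 fold change 4.11, SE 0.101, edgeR QL, BH-adjusted p = 6.27e-33). Nr4a3 measured 131, 114 and 86.4 CPM at 0 h and 926, 954 and 943 CPM at 24 h (log2 fold change 3.08, SE 0.126, edgeR QL, BH-adjusted p = 5.08e-17). Nr4a2 measured 13, 21.5 and 20 CPM at 0 h and 135, 135 and 126 CPM at 24 h (log2 2.90). These groups were separated by a wide gap. The AP-1 member Fosl1 measured 0.858, 0.807 and 1.13 CPM at 0 h and 26.2, 38.6 and 35.6 CPM at 24 h (log2 5.16), although 57.2% of its exon length is shared with Ccdc85b. Hivep3, a zinc-finger gene outside the list, had one of the 8 largest gains in CPM among genes that passed and measured 103, 92.1 and 91.5 CPM at 0 h and 1615, 1500.3 and 1553 CPM at 24 h (log2 fold change 4.02, SE 0.0948, edgeR QL, BH-adjusted p = 2.34e-33). Myc, which drives growth and metabolism of activated T cells, measured 256, 177 and 185 CPM at 0 h and 594, 669 and 651 CPM at 24 h (log2 fold change 1.63, SE 0.109, edgeR QL, BH-adjusted p = 3.31e-14). The NF-kappaB subunit gene Rel measured 58.5, 53.3 and 43.3 CPM at 0 h and 183, 151 and 145 CPM at 24 h (log2 1.62). The 4 members that fell were Tox2 (log2 -1.85), Tox (log2 -1.69), Ikzf2, which encodes Helios (log2 -0.86), and Batf. Batf measured 26.8, 26.6 and 29.9 CPM at 0 h and 15.4, 20.3 and 18.9 CPM at 24 h (log2 -0.61, edgeR QL, BH-adjusted p = 0.00969), and its call was lost with library size alone and without KO 24 h replicate 1. Tbx21, the Th1 factor T-bet, measured 42.5, 26.8 and 36 CPM at 0 h and 48.1, 43.5 and 46.3 CPM at 24 h (log2 0.38, edgeR QL, BH-adjusted p = 0.08). Prdm1, which encodes Blimp-1, measured 16.4, 14.7 and 17.9 CPM at 0 h and 16.8, 19.7 and 20.2 CPM at 24 h (log2 0.21, edgeR QL, BH-adjusted p = 0.403). Neither passed, and the times overlapped for Prdm1 but not for Tbx21.

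**Figure D2:**
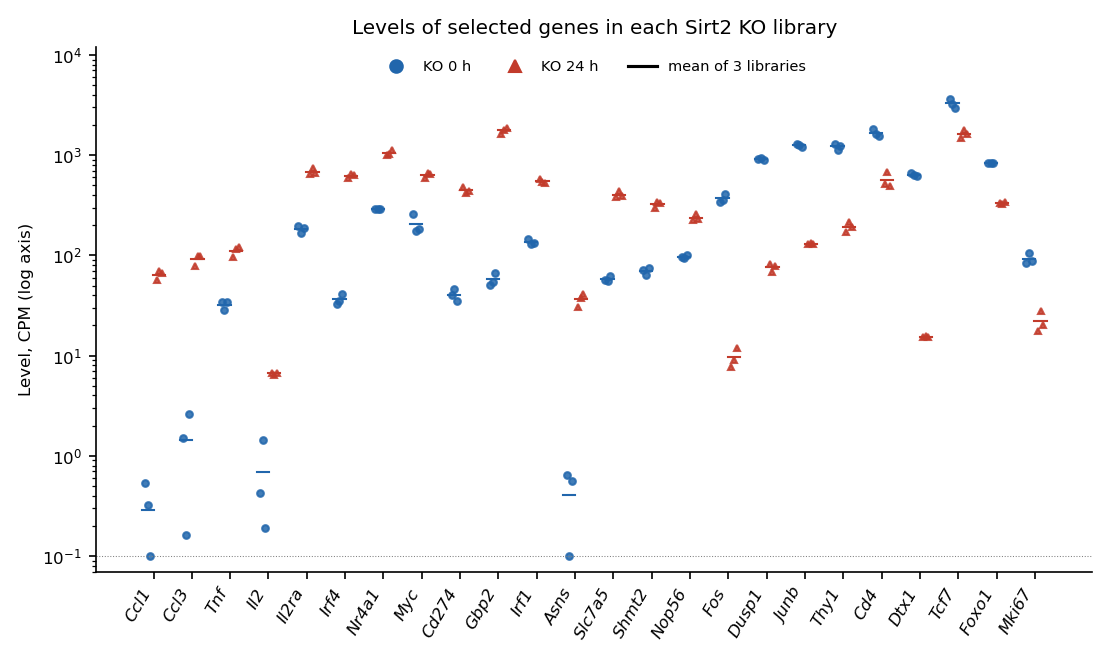
Levels of 24 genes named in the text are plotted in CPM on a log axis, with 3 KO 0 h libraries (blue circles) and 3 KO 24 h libraries (red triangles) per gene and bars at the mean. Libraries without a read are drawn on the dotted line. In each of these 24 genes the 2 times do not overlap. The 15 genes on the left are higher at 24 h and the 9 on the right, from Fos to Mki67, are lower.

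Cytokines and chemokines had the highest median of the lists with at least 7 tested members. Of 28 members in the files 22 were tested, and 14 were higher and 2 lower, with a median of 1.84. The filter kept a gene with enough reads in 3 libraries. Members near nothing at 0 h could thus enter through 24 h libraries alone, so the median and the rank rest partly on the filter. Ccl22, a ligand of the receptor CCR4, had no read in any KO 0 h library and measured 19, 30.6 and 19.2 CPM at 24 h, which is at least 163-fold higher when 3 reads are set over the KO 0 h group. Ccl1, a ligand of CCR8, measured 0.536, 0.323 and 0 CPM at 0 h and 56.7, 70.1 and 66.2 CPM at 24 h (log2 fold change 7.51, SE 0.321, edgeR QL, BH-adjusted p = 1.27e-23). Ccl3 and Ccl4 share a receptor and attract effector cells. Ccl3 measured 1.5, 0.161 and 2.64 CPM at 0 h and 78.2, 97.7 and 97.8 CPM at 24 h (log2 6.01). Ccl4 measured 0, 0.323 and 0.565 CPM at 0 h and 31.3, 36.9 and 38.1 CPM at 24 h (log2 7.08). These 4 chemokines were close to undetected at 0 h and far above that in every library of 24 h. Il13, a Th2 cytokine, measured 0, 0.323 and 0.753 CPM at 0 h and 19, 18.7 and 19.2 CPM at 24 h (log2 fold change 5.92, SE 0.502, edgeR QL, BH-adjusted p = 3.72e-13). Il2, the T cell growth factor, measured 0.429, 1.45 and 0.188 CPM at 0 h and 6.77, 6.47 and 6.72 CPM at 24 h (log2 fold change 3.25, SE 0.573, edgeR QL, BH-adjusted p = 8.24e-06). Tnf measured 34.6, 28.2 and 34.1 CPM at 0 h and 97.2, 116 and 121 CPM at 24 h (log2 fold change 1.78, SE 0.125, edgeR QL, BH-adjusted p = 3.16e-16). Il2 thus rose from near nothing, and its 24 h libraries were close to each other, while Tnf was present before. Csf2, the growth factor GM-CSF, measured 0.214, 1.29 and 0.941 CPM at 0 h and 9.34, 9.96 and 8.46 CPM at 24 h (log2 3.60). Lif measured 2.04, 1.13 and 3.2 CPM at 0 h and 22.9, 22.5 and 24.4 CPM at 24 h (log2 3.47). The Th2 cytokine Il4 measured 3.22, 0.807 and 2.26 CPM at 0 h and 5.31, 11.9 and 8.96 CPM at 24 h (log2 2.00). Of these 3, Il4 had the least distance between its times. Ifng measured 14.9, 14 and 19.6 CPM at 0 h and 30.6, 43.2 and 35.3 CPM at 24 h. The Ifng groups did not overlap, but it did not pass (log2 1.18, edgeR QL, BH-adjusted p = 0.117), and 25.9% of its exon length is shared with Gm49751. Ccl5, made by memory and cytotoxic cells, was the member that fell most with 229.9, 184 and 248 CPM at 0 h and 12.8, 18 and 20.9 CPM at 24 h (log2 fold change -3.69, SE 0.181, edgeR QL, BH-adjusted p = 9.29e-13), and lymphotoxin beta (Ltb) fell by 0.48. Fasl (log2 0.25) and Tgfb1 (log2 -0.15) did not pass.

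Cytokine receptors split. Of 16 tested genes of the interleukin 2 and cytokine receptor list 6 rose and 8 fell, with a median of -0.24 that became 0.00 with library size alone, where 5 fell. Il2ra, the chain CD25 that makes the interleukin 2 receptor high-affinity, measured 195, 168 and 187 CPM at 0 h and 645, 739 and 664 CPM at 24 h (log2 fold change 1.90, SE 0.0935, edgeR QL, BH-adjusted p = 9.25e-22). Ifngr1, the ligand-binding chain of the interferon gamma receptor, measured 87.3, 101 and 104 CPM at 0 h and 351, 385 and 334 CPM at 24 h (log2 fold change 1.88, SE 0.0956, edgeR QL, BH-adjusted p = 3.38e-21). Both chains of the interleukin 12 receptor rose, Il12rb1 by 1.67 and Il12rb2 by 1.87 (40% of the Il12rb2 exon length is shared with Serbp1). Il7r, which gives naive cells their survival signal, measured 309.7, 325 and 325 CPM at 0 h and 145, 154 and 145 CPM at 24 h (log2 fold change -1.11, SE 0.0925, edgeR QL, BH-adjusted p = 6.94e-14). Il6ra fell by 0.98, Il18r1 by 0.95 and Il21r by 0.83, each with separate groups. The shared chain Il6st did not pass (log2 -0.19).

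Among 14 tested costimulatory receptors and ligands 6 rose and 5 fell (median 0.47). Tnfrsf9, the receptor 4-1BB, measured 47.1, 39.7 and 37.3 CPM at 0 h and 237, 279 and 235 CPM at 24 h (log2 fold change 2.59, SE 0.115, edgeR QL, BH-adjusted p = 1.11e-22). Slamf1 measured 24.6, 33.9 and 31.8 CPM at 0 h and 144, 135 and 133 CPM at 24 h (log2 2.21). Tnfrsf4, the receptor OX40, measured 42.9, 43.2 and 47.3 CPM at 0 h and 103, 110.3 and 107 CPM at 24 h (log2 1.27). These receptors are known to appear on activated cells. Cd226, an activating receptor, measured 61.2, 63.3 and 63.6 CPM at 0 h and 21.8, 21.1 and 20.9 CPM at 24 h (log2 -1.56). Cd40lg, the helper signal to B cells, measured 205, 197 and 165 CPM at 0 h and 68.8, 89.6 and 70.7 CPM at 24 h (log2 -1.30). Cd27 fell by 0.58. Of 16 tested inhibitory receptors and ligands 7 rose and 6 fell (median 0.34). Cd274, the ligand PD-L1, measured 39.9, 45.8 and 35.2 CPM at 0 h and 481, 417 and 442 CPM at 24 h (log2 fold change 3.47, SE 0.0985, edgeR QL, BH-adjusted p = 1.37e-30). Its partner ligand Pdcd1lg2 measured 12.7, 9.36 and 12.8 CPM at 0 h and 54.4, 57.1 and 67.9 CPM at 24 h (log2 2.35). The receptor Pdcd1 measured 12.5, 10.3 and 10.9 CPM at 0 h and 31.5, 23.9 and 29.4 CPM at 24 h (log2 1.31). For each of these 3 genes of the PD-1 pathway the times were separate. Lag3, which binds MHC class II, measured 23.3, 9.68 and 13.7 CPM at 0 h and 46.9, 61.7 and 53.2 CPM at 24 h (log2 1.75). Ctla4 measured 32.3, 25 and 31.3 CPM at 0 h and 38.1, 32.9 and 38.3 CPM at 24 h and did not pass (log2 0.30, edgeR QL, BH-adjusted p = 0.111). Lair1 (log2 -1.96), Cd160 (log2 -1.37), Cd96 (log2 -1.35) and Cd5 (log2 -0.96) fell. Cd69, an early surface marker of activation, measured 109, 123 and 108 CPM at 0 h and 141, 145 and 144 CPM at 24 h, a small rise (log2 0.34, edgeR QL, BH-adjusted p = 0.00362) from a level already present at 0 h.

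Genes linked to anergy, the unresponsive state of T cells that receive a receptor signal without costimulation, went in both directions. Of 16 tested members 6 rose and 8 fell, with a median of -0.21 that became 0.03 with library size alone and 0.00 with KO libraries only. Dtx1, a Notch-pathway ubiquitin ligase on the list, is among the 12 largest falls and measured 662, 638 and 617 CPM at 0 h and 15.2, 15.6 and 15.2 CPM at 24 h (log2 fold change -5.38, SE 0.187, edgeR QL, BH-adjusted p = 1.66e-13). The 3 libraries of 24 h agreed closely and lay far below those of 0 h. Egr2 measured 30.6, 28.7 and 25.4 CPM at 0 h and 193, 196 and 234 CPM at 24 h (log2 fold change 2.86, SE 0.212, edgeR QL, BH-adjusted p = 2.57e-07). Egr3 measured 69.9, 57.1 and 50.6 CPM at 0 h and 277, 317 and 297 CPM at 24 h (log2 2.31). Cblb, a ubiquitin ligase that restrains receptor signals, measured 469, 441 and 365 CPM at 0 h and 943, 919 and 879 CPM at 24 h (log2 1.10). Nedd4 fell by 1.43 and the antiproliferative gene Tob1 by 1.11. Itch did not pass (log2 0.04). Of 25 tested negative feedback regulators 9 rose and 9 fell, with a median of 0.04 (5 fell with library size alone). Socs1, an inhibitor of JAK kinases, measured 40.8, 43.1 and 30.3 CPM at 0 h and 279.9, 279.9 and 357 CPM at 24 h (log2 fold change 2.99, SE 0.126, edgeR QL, BH-adjusted p = 1.53e-19). Cish, a target of STAT5, measured 43.2, 46.3 and 40.3 CPM at 0 h and 189, 249.9 and 209 CPM at 24 h (log2 2.32). Spry1, an inhibitor of the Ras pathway, measured 23, 19.8 and 18.6 CPM at 0 h and 141, 167 and 167 CPM at 24 h (log2 2.93). Tnfaip3, the NF-kappaB brake A20, measured 661, 726 and 545 CPM at 0 h and 268, 254 and 251 CPM at 24 h (log2 fold change -1.32, SE 0.0907, edgeR QL, BH-adjusted p = 1.23e-16). Spred1 rose by 1.43 while Spred2 fell by 0.92. The BCL2 family of apoptosis regulators was mostly higher, with 8 of 14 tested members up, 1 down and a median of 0.66. Bcl2, which protects from death, measured 137, 149 and 177 CPM at 0 h and 511, 479 and 522 CPM at 24 h (log2 fold change 1.71, SE 0.09, edgeR QL, BH-adjusted p = 1.06e-20). Bcl2l11 (BIM), which promotes it, measured 71, 74.9 and 72.1 CPM at 0 h and 193, 202 and 233 CPM at 24 h (log2 1.53). Mcl1 rose by 0.74. Bcl2a1b rose by 1.62, but it has near-identical copies. The 1 member that fell was Bak1, by 0.43, and not with library size alone.

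Genes that mark resting naive cells were lower, with 19 of 30 tested members down, 5 up and a median of -0.56 (8 up with library size alone). Tcf7, which encodes TCF-1, measured 3658, 3216 and 2985 CPM at 0 h and 1485, 1769 and 1612 CPM at 24 h (log2 fold change -1.02, SE 0.0923, edgeR QL, BH-adjusted p = 9.36e-13). Foxo1, the factor that maintains Il7r and Klf2, measured 828, 827 and 843 CPM at 0 h and 334, 326 and 337 CPM at 24 h (log2 fold change -1.32, SE 0.0823, edgeR QL, BH-adjusted p = 4.15e-18). Igfbp4 measured 599.9, 605 and 675 CPM at 0 h and 94.1, 106 and 99.5 CPM at 24 h (log2 -2.65). Dapl1 measured 267, 242 and 185 CPM at 0 h and 11.9, 16.4 and 16.4 CPM at 24 h (log2 -3.96). In all of these the 0 h libraries were uniformly the higher. Klf2 measured 912, 1005 and 1061 CPM at 0 h and 684, 742 and 747 CPM at 24 h, a smaller fall (log2 -0.45, edgeR QL, BH-adjusted p = 1.96e-05). Satb1, a chromatin organizer, did not pass (log2 0.07). The repressor gene Bach2 went the other way and measured 249, 233 and 204 CPM at 0 h and 531, 546 and 519 CPM at 24 h (log2 fold change 1.22, SE 0.0877, edgeR QL, BH-adjusted p = 6.71e-16). Slfn2 rose by 0.70, Itga6 by 0.74 and Tsc1, a brake on mTORC1, by 0.61.

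Homing and chemokine receptors were lower in 18 of 24 tested members and higher in 2, with a median of -1.14. Ccr9, the gut-homing receptor, measured 26.3, 19.5 and 24.1 CPM at 0 h and 2.56, 2.8 and 1.24 CPM at 24 h (log2 fold change -3.35, SE 0.294, edgeR QL, BH-adjusted p = 3.93e-13). Cxcr5, which guides cells to B cell follicles, measured 43.2, 35.3 and 38 CPM at 0 h and 4.21, 6.12 and 2.74 CPM at 24 h (log2 -3.11). Cxcr3, carried by Th1 and memory cells, measured 73.3, 52.9 and 71.7 CPM at 0 h and 12.3, 16.1 and 15.2 CPM at 24 h (log2 -2.19). In each of these 3 the 24 h libraries were far below those of 0 h. S1pr1, which lets T cells leave lymphoid organs, measured 758, 760.4 and 772 CPM at 0 h and 385, 421 and 412 CPM at 24 h (log2 fold change -0.91, SE 0.0884, edgeR QL, BH-adjusted p = 7.30e-12). Ccr7 measured 574, 593 and 579 CPM at 0 h and 417, 485 and 427 CPM at 24 h, a small fall (log2 -0.39, edgeR QL, BH-adjusted p = 0.000123) that was lost with library size alone. Ccr8 and Ccr4 were the 2 receptors that rose. Ccr8 measured 7.94, 8.39 and 7.91 CPM at 0 h and 14.3, 17.8 and 17.7 CPM at 24 h (log2 1.03). Ccr4 measured 13.2, 17.6 and 11.7 CPM at 0 h and 25.3, 24.5 and 21.6 CPM at 24 h (log2 0.75). They are the receptors of the ligands Ccl1 and Ccl22 named above.

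Lineage genes of helper and regulatory T cells split, with 9 of 28 tested members higher and 12 lower (median 0.06). Foxp3, the factor of regulatory T cells, measured 301, 241 and 242 CPM at 0 h and 142, 172 and 147 CPM at 24 h (log2 fold change -0.77, SE 0.144, edgeR QL, BH-adjusted p = 0.00035), and 31.5% of its exon length is shared with other genes. Nrp1 (log2 -1.77), Id2 (log2 -1.52) and Maf (log2 -1.50) fell. Zbtb7b, which encodes the CD4-lineage factor ThPOK, measured 275, 267 and 279.6 CPM at 0 h and 111, 110.4 and 105 CPM at 24 h (log2 -1.33). Stat5a, which relays interleukin 2 signals, measured 97.9, 80.2 and 86 CPM at 0 h and 218, 233 and 209.8 CPM at 24 h (log2 1.32). Eomes measured 22.6, 24.7 and 22.6 CPM at 0 h and 57.1, 64.7 and 56.2 CPM at 24 h (log2 1.35). Stat4 (log2 0.21) and Stat6 (log2 -0.08) did not pass. Cytotoxic genes were lower in 8 of 14 tested members and higher in 4 (median -0.49). Granzyme B (Gzmb) rose with 6.65, 4.2 and 4.9 CPM at 0 h and 10.6, 13.1 and 21.1 CPM at 24 h (log2 1.47), as did its inhibitor Serpinb9 (log2 1.20) and the granule proteoglycan gene Srgn (log2 0.62). Nkg7 measured 48.8, 41 and 49.1 CPM at 0 h and 13, 16.4 and 16.7 CPM at 24 h (log2 -1.60). Perforin (Prf1) measured 35, 24 and 21.3 CPM at 0 h and 9.15, 10.5 and 8.46 CPM at 24 h (log2 -1.52). These 2, with Ccl5 and Klrb1c, are genes of memory, NK and CD8 cells, and the part of such cells in their fall was not tested. Cd44, a receptor that is high on memory cells, measured 211, 210.4 and 187 CPM at 0 h and 108, 129.7 and 108 CPM at 24 h (log2 -0.81).

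Interferon-stimulated genes rose together. Of 46 tested members 35 were higher and 2 lower, with a median of 1.23. Gbp2, a guanylate-binding protein that attacks vacuoles of microbes, measured 51.1, 54.4 and 67.2 CPM at 0 h and 1636, 1784 and 1866 CPM at 24 h (log2 fold change 4.95, SE 0.124, edgeR QL, BH-adjusted p = 2.58e-28). Gbp5 measured 25.4, 17.8 and 22.6 CPM at 0 h and 306, 302 and 299 CPM at 24 h (log2 3.77). The GTPase Iigp1 measured 25, 21.9 and 25.8 CPM at 0 h and 402, 435 and 423 CPM at 24 h (log2 4.11). Each of the 3 was low at 0 h, with times far apart. Gbp11, named among the largest rises of all genes, measured 0.107, 0.807 and 0.753 CPM at 0 h and 104, 69.9 and 76.6 CPM at 24 h (log2 7.38). The Gbp genes are close copies in a cluster, and reads that fit several of them were not counted, so their levels are uncertain. Irf1, a transcription factor of the interferon response, measured 145, 130.1 and 133 CPM at 0 h and 582, 535 and 526 CPM at 24 h (log2 fold change 2.01, SE 0.0849, edgeR QL, BH-adjusted p = 3.61e-24). Ifit3 measured 9.55, 6.62 and 17.9 CPM at 0 h and 83.5, 111 and 118 CPM at 24 h (log2 3.24). Oasl2 measured 18.7, 24.4 and 37.8 CPM at 0 h and 259, 322 and 319 CPM at 24 h (log2 3.52). In these too every 24 h library was above every 0 h library. Samhd1, which breaks down dNTPs and restricts viruses, measured 566, 589 and 593 CPM at 0 h and 2604, 2685 and 2792 CPM at 24 h (log2 fold change 2.21, SE 0.0877, edgeR QL, BH-adjusted p = 3.39e-25). The 2 members that fell were Oasl1, with 18.9, 20.3 and 14.7 CPM at 0 h and 5.49, 5.24 and 2.24 CPM at 24 h (log2 -2.01), and the exonuclease gene Isg20 (log2 -0.98). Ddx58, the RNA sensor RIG-I, measured 129.9, 128 and 143 CPM at 0 h and 135, 142 and 155 CPM at 24 h and did not pass (log2 0.11, edgeR QL, BH-adjusted p = 0.387), nor did Ifi27l2a (log2 -0.11). In WT cells 32 members were higher and 4 lower.

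The promoters of these genes were searched for the interferon-stimulated response element (ISRE), spelled GAAANNGAA on either strand, in the 250 bases before the gene start (RefSeq, build GRCm38.p6). Of 34 tested list members with a promoter in the table, 19 held it (55.9%, 95% exact interval 37.9 to 72.8), and 15 of these 19 rose while the other 4, Oas1a, Oas3, Rsad2 and Bst2, did not pass. Among the promoters of all 8818 tested genes with a sequence 6.33% held it, and in the RefSeq set of 27025 promoters 7.16% did. Of the 505 strongly higher genes with a promoter 10.1% held it, against 5.90% of the 644 strongly lower ones. A match describes letters only and shows no binding. The promoters of 4 genes are printed because their genes are named above and rose with the list, in lower case with matches in capitals. In Gbp2 (chr3:142620413-142620662, plus strand) the capitals are, in order, a kappaB match (GGGNNTTTC, read on the other strand), an AP-1 match (TGANTCA) and an ISRE match. Either strand was searched for these too, and of all tested genes with a promoter 3.75% held the kappaB and 3.88% the AP-1 letters. In Gbp5 (chr3:142496684-142496933, plus strand) there are 2 kappaB matches and between them 1 ISRE match. In Socs1 (chr16:10785537-10785786, minus strand) 2 ISRE matches overlap in 1 run. In Ifit3 (chr19:34583279-34583528, plus strand) 3 ISRE matches are followed by 1 AP-1 match.
Gbp2: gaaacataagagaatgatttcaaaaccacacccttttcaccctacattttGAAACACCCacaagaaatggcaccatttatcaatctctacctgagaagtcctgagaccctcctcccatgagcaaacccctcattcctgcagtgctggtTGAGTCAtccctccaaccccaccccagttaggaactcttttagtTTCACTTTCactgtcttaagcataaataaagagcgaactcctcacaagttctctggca
Gbp5: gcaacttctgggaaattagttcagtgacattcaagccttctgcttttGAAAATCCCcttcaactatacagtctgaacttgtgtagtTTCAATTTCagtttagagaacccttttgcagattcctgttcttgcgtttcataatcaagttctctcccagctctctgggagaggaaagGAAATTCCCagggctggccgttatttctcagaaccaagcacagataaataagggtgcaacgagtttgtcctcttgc
Socs1: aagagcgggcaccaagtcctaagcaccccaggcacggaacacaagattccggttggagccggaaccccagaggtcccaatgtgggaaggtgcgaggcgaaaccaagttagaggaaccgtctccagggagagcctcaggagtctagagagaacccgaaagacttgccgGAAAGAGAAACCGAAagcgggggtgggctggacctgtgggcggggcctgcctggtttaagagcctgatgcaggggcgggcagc
Ifit3: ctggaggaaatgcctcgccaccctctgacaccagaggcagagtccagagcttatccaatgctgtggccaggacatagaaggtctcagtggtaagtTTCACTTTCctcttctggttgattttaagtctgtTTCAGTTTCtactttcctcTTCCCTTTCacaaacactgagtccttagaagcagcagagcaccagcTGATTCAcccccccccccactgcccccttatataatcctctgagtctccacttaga

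Cd274, the ligand PD-L1 described above, is no member of that list, and its promoter (chr19:29367188-29367437, plus strand) is shown because it held 1 ISRE match and its RNA rose with the list.
Cd274: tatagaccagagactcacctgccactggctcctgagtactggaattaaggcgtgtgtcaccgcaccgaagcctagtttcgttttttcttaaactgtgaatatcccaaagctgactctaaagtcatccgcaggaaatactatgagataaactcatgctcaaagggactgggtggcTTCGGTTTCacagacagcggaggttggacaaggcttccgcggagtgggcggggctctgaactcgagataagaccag

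The genes that present peptides on MHC class I followed, with 10 of 16 tested members higher, 2 lower and a median of 0.36. Tap1, a subunit of the peptide transporter, measured 146, 142 and 165 CPM at 0 h and 372, 358 and 377 CPM at 24 h (log2 fold change 1.29, SE 0.0915, edgeR QL, BH-adjusted p = 3.86e-16). Tap2 measured 129, 123 and 137 CPM at 0 h and 247, 234 and 237 CPM at 24 h (log2 0.88). Nlrc5, the transactivator of these genes, rose by 1.21 and the non-classical H2-T23 by 0.97. The class I chain H2-K1 went the other way with 1898, 1699 and 1792 CPM at 0 h and 1211, 1390.0 and 1327 CPM at 24 h (log2 -0.46), as did H2-D1 (log2 -0.39, lost with library size alone). B2m, their shared light chain, measured 11331, 9623 and 8866 CPM at 0 h and 8093, 9960.5 and 8545 CPM at 24 h and did not pass (log2 -0.16, edgeR QL, BH-adjusted p = 0.203).

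Amino acid supply had the highest median of the metabolic lists. Of 16 amino acid transporters in the files 14 were tested, and 11 rose and 1 fell, with a median of 1.24. Here too members near nothing at 0 h could enter through 24 h libraries alone, so this median rests partly on the filter. Slc7a5, the light chain of the large neutral amino acid transporter, measured 56.3, 54.9 and 62.9 CPM at 0 h and 386, 437 and 390.1 CPM at 24 h (log2 fold change 2.81, SE 0.0936, edgeR QL, BH-adjusted p = 5.28e-28). Its heavy chain Slc3a2 measured 138, 123 and 118 CPM at 0 h and 266, 286 and 266 CPM at 24 h (log2 1.11). Slc6a9, the glycine transporter GlyT1, measured 0, 0 and 1.32 CPM at 0 h and 31.3, 26.4 and 25.9 CPM at 24 h (log2 6.27), with 30.2% of its exon length shared with other genes. Slc1a4, a transporter of alanine and serine, measured 0.107, 0.484 and 0.941 CPM at 0 h and 24, 24.1 and 26.6 CPM at 24 h (log2 5.76). Slc7a11, which imports cystine, had no read at 0 h and measured 5.31, 1.92 and 5.47 CPM at 24 h, at least 28.3-fold higher with 3 reads set over the KO 0 h group. The member that fell was Slc43a2 with 76.1, 66.5 and 73.8 CPM at 0 h and 37.3, 32.7 and 29.4 CPM at 24 h (log2 -1.12). Enzymes that make amino acids rose too. Asns, asparagine synthetase, measured 0.643, 0 and 0.565 CPM at 0 h and 30.8, 37.2 and 41.6 CPM at 24 h (log2 fold change 6.34, SE 0.376, edgeR QL, BH-adjusted p = 4.66e-18). Bcat1, the cytosolic branched-chain transaminase, measured 0.429, 1.61 and 0.941 CPM at 0 h and 58.2, 56.3 and 56.5 CPM at 24 h (log2 fold change 5.92, SE 0.269, edgeR QL, BH-adjusted p = 4.55e-23). Both were close to undetected at 0 h. Of 18 tested genes of serine and one-carbon metabolism 12 rose and the other 6 did not pass, with a median of 0.67. Shmt2, the mitochondrial serine hydroxymethyltransferase, measured 71.2, 63.7 and 74.2 CPM at 0 h and 297, 344 and 333 CPM at 24 h (log2 fold change 2.22, SE 0.0995, edgeR QL, BH-adjusted p = 3.02e-23). Its cytosolic form Shmt1 measured 7.94, 5.16 and 3.01 CPM at 0 h and 36.1, 35.8 and 31.8 CPM at 24 h (log2 2.61). Both forms were higher in every 24 h library than at 0 h. Of the serine pathway, Phgdh measured 35.8, 29.9 and 41.8 CPM at 0 h and 116, 119 and 137 CPM at 24 h (log2 1.79). Psat1 measured 25.4, 29.7 and 28.8 CPM at 0 h and 129, 154 and 146 CPM at 24 h (log2 2.36). The folate enzyme Mthfd2 measured 26.4, 29 and 24.9 CPM at 0 h and 106, 119 and 98 CPM at 24 h (log2 2.01). No library of 24 h overlapped those of 0 h for these enzymes. Aldh1l2, another folate enzyme of mitochondria, had no read at 0 h and was likewise at least 28.3-fold higher at 24 h. Methionine synthase, Mtr, measured 25.6, 35.2 and 37.8 CPM at 0 h and 35.9, 33 and 30.4 CPM at 24 h and did not pass (log2 0.03). Glutaminolysis, transaminase and polyamine genes rose in 6 of 16 tested members and fell in 4 (median 0.04, -0.01 with upper-quartile factors), with the alanine transaminase Gpt2 up by 4.79 and Got1 by 1.41. Without KO 0 h replicate 1, or with library size alone, 2 members were lower.

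**Figure D3:**
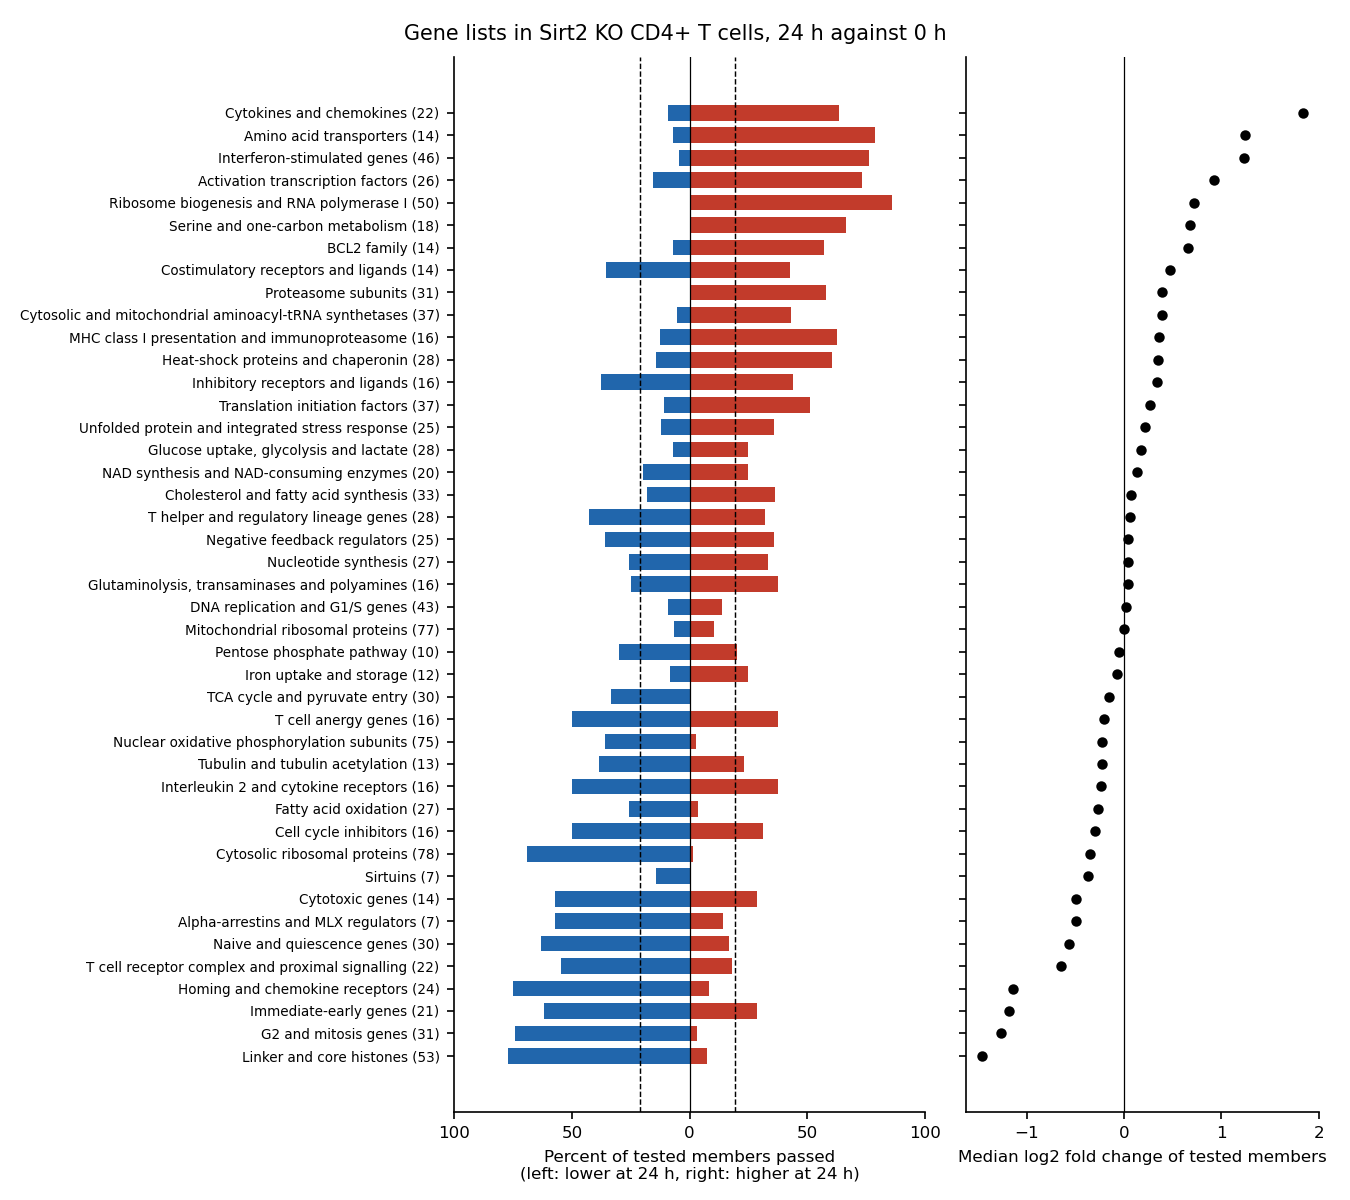
Gene lists with at least 7 tested members (number in brackets) are ordered by the median log2 fold change of their tested members at 24 h over 0 h in KO cells, shown on the right. Bars on the left give the percent of tested members that passed as higher (red) or lower (blue), and dashed lines mark the shares over all tested genes, 19.4% and 21.0%. Cytokines, amino acid transporters and interferon-stimulated genes stand at the top and histones, mitosis and immediate-early genes at the bottom.

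The integrated stress response couples amino acid shortage and other stresses, through phosphorylated eIF2alpha and the factor Atf4, to many of the genes just described. Of 25 tested genes of the unfolded protein and integrated stress response 9 rose and 3 fell, with a median of 0.21 (14 rose with library size alone). Chac1, a glutathione-degrading enzyme under Atf4, had no read at 0 h and measured 18.3, 22.7 and 15.7 CPM at 24 h, at least 134-fold higher with 3 reads set over the KO 0 h group. Trib3 measured 3.54, 3.71 and 8.47 CPM at 0 h and 40.3, 45.3 and 39.3 CPM at 24 h (log2 3.06). Sesn2, an inhibitor of mTORC1, measured 5.58, 8.23 and 8.47 CPM at 0 h and 51.3, 53.6 and 49.3 CPM at 24 h (log2 2.83). Atf4 itself had a mean of 193 CPM ± 22.2 (SD, n = 3) at 0 h and 274 CPM ± 21.9 (n = 3) at 24 h (log2 fold change 0.50, SE 0.0925, edgeR QL, BH-adjusted p = 1.69e-05). Hspa5 (BiP), a chaperone of the endoplasmic reticulum, measured 222, 218 and 228 CPM at 0 h and 235, 240.4 and 228 CPM at 24 h (log2 0.08, edgeR QL, BH-adjusted p = 0.514) and did not pass, nor did calreticulin, Calr (log2 -0.11, edgeR QL, BH-adjusted p = 0.319). For both the times overlapped. Dnajb9, an endoplasmic reticulum cochaperone, fell with 231, 186 and 138 CPM at 0 h and 56.6, 61.5 and 50.8 CPM at 24 h (log2 -1.72).

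Aminoacyl-tRNA synthetases, which load tRNAs with amino acids and many of which are known Atf4 targets, rose in 16 of 37 tested members and fell in 2 (median 0.39). Wars, for tryptophan and also known to be induced by interferon gamma, measured 48.5, 43.1 and 40.1 CPM at 0 h and 380.2, 383 and 408 CPM at 24 h (log2 fold change 3.14, SE 0.0975, edgeR QL, BH-adjusted p = 3.26e-29). Aars, for alanine, measured 39.3, 42.8 and 49.7 CPM at 0 h and 191, 199 and 211 CPM at 24 h (log2 fold change 2.20, SE 0.113, edgeR QL, BH-adjusted p = 5.09e-21). Cars, for cysteine, rose by 2.19 and Iars, for isoleucine, by 2.08. The synthetases for aspartate and glutamine, Dars (log2 -0.24) and Qars (log2 -0.15), did not pass. The mitochondrial leucine enzyme gene Lars2 fell with 1008, 1147 and 1952 CPM at 0 h and 401, 513 and 589.7 CPM at 24 h (log2 -1.45). Its 0 h libraries were uneven and ran in the order of their Rn45s share (12.5%, 14.2% and 17.5%), and a part of rRNA carry-over was not tested. The site TGATGCAAT, bound by Atf4 with CEBP factors, was found within 250 bases before the start of 1 of 27 promoters of the list, that of Aars (chr8:111033592-111033841, plus strand), and of 0.0794% of all tested genes. The first capitals mark an E-box (CACGTG) and the second that site, on whichever strand they match.
Aars: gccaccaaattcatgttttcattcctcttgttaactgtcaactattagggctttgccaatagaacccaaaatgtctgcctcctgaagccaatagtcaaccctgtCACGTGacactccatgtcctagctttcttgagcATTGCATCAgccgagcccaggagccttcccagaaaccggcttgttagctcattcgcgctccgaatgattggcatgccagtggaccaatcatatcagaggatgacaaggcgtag

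Ribosome assembly genes rose nearly throughout. Of 50 tested members of the list of ribosome biogenesis and RNA polymerase I, 43 rose and the other 7 did not pass, with a median of 0.72. Nop56, a core protein of box C/D snoRNPs, measured 95.8, 93.6 and 100.4 CPM at 0 h and 228, 257 and 231 CPM at 24 h (log2 fold change 1.30, SE 0.0998, edgeR QL, BH-adjusted p = 4.71e-15). Gnl3 (nucleostemin) measured 23.2, 21.1 and 23 CPM at 0 h and 61.3, 60.1 and 62.2 CPM at 24 h (log2 1.45). Nolc1 measured 71.3, 84.4 and 77.6 CPM at 0 h and 191, 185 and 195 CPM at 24 h (log2 1.29). The abundant nucleolar genes moved with them. Nucleolin (Ncl) measured 865, 942 and 825 CPM at 0 h and 1825, 1918 and 1541 CPM at 24 h (log2 fold change 1.01, SE 0.0921, edgeR QL, BH-adjusted p = 1.30e-12). Nucleophosmin (Npm1) measured 689, 735 and 607 CPM at 0 h and 1057, 1183 and 1043 CPM at 24 h (log2 0.69). Among the 7 were the polymerase I factor Ubtf, with 156, 139 and 141 CPM at 0 h and 154, 158 and 153 CPM at 24 h (log2 0.09), and Polr1d (log2 -0.05). The share of Rn45s was lower, but rRNA was depleted with probes during library preparation, so it is not read as rRNA synthesis. The RNA components of 2 enzymes that process rRNA and tRNA fell. Rmrp measured 5269, 6686 and 7547 CPM at 0 h and 3460.0, 3758 and 3415 CPM at 24 h (log2 -0.87). Rpph1 measured 3832, 4158 and 4956 CPM at 0 h and 2266, 2564 and 2938 CPM at 24 h (log2 -0.74), and they share 44.1% and 73% of their length with other genes. At 0 h both ran in the order of the Rn45s share, as Lars2 did.

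Genes of the ribosomal proteins went the other way. Of 78 tested cytosolic ribosomal protein genes 54 fell and 1 rose, with a median of -0.35. The falls were small. Rps29 measured 1816, 1777 and 1601 CPM at 0 h and 966, 995 and 861 CPM at 24 h (log2 fold change -0.88, SE 0.0889, edgeR QL, BH-adjusted p = 2.35e-11). Rps16 measured 1845, 1729 and 1899 CPM at 0 h and 951, 1113 and 1088 CPM at 24 h (log2 -0.80). Rplp2 measured 2649.8, 2010.1 and 1966 CPM at 0 h and 1099, 1403 and 1468 CPM at 24 h (log2 -0.74). The 1 gene that rose was Rpl24 (log2 0.29), which shares 47% of its exon length with Gm28037. With library size alone 27 fell, so shifts of this size depend on the scaling, and the many processed copies of these genes make their counts uncertain. The elongation factor Eef1a1 (log2 -0.37) and Tpt1 (log2 -0.39), whose RNAs are controlled with those of ribosomal proteins, fell as well, and not with library size alone. Translation initiation factors rose in 19 of 37 tested members and fell in 4 (median 0.27), with 1 member lower with library size alone or without KO 24 h replicate 1 and 2 without KO 0 h replicate 1 or KO 0 h replicate 2. Eif4ebp1, a repressor of cap-dependent translation and an Atf4 target, measured 4.61, 4.84 and 6.59 CPM at 0 h and 49.4, 67.4 and 58.7 CPM at 24 h (log2 fold change 3.48, SE 0.192, edgeR QL, BH-adjusted p = 6.05e-20). Eif3c measured 214, 197 and 196 CPM at 0 h and 497, 532 and 516 CPM at 24 h (log2 1.35) and Eif2s2, a subunit of eIF2, rose by 1.03. Pdcd4, another repressor of translation, fell by 0.60. Mitochondrial ribosomal proteins mostly did not pass, with 8 of 77 higher, 5 lower and a median of -0.00 that was 0.24 with library size alone, where 21 rose and 1 fell. Leaving out a library left 3 to 5 higher (without KO 0 h replicate 3, KO 24 h replicate 2 or KO 24 h replicate 3) and 2 or 3 lower (without KO 0 h replicate 3, KO 24 h replicate 1 or KO 24 h replicate 3).

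Proteasome subunits rose in 18 of 31 tested members and the other 13 did not pass, with a median of 0.39. Psma7 measured 43.2, 42.8 and 40.7 CPM at 0 h and 84.2, 80 and 78.6 CPM at 24 h (log2 fold change 0.94, SE 0.11, edgeR QL, BH-adjusted p = 1.37e-09). Psmd7 measured 31.7, 38.4 and 31.8 CPM at 0 h and 57.8, 62 and 59.2 CPM at 24 h (log2 0.81). Psma5 measured 15.1, 17.9 and 20.5 CPM at 0 h and 31.8, 31.8 and 29.4 CPM at 24 h (log2 0.81). Psmb1 measured 133, 117 and 127 CPM at 0 h and 119.5, 124 and 148 CPM at 24 h and did not pass (log2 0.05). Heat-shock proteins and chaperonin subunits rose in 17 of 28 and fell in 4 (2 without KO 24 h replicate 1), with a median of 0.35. The mitochondrial chaperone gene Hspa9 (mortalin) rose and measured 98.6, 104 and 101 CPM at 0 h and 315, 347 and 302 CPM at 24 h (log2 1.67). Hspd1 (HSP60), also mitochondrial, rose and measured 76.7, 81.8 and 77.6 CPM at 0 h and 181, 201 and 187 CPM at 24 h (log2 1.27). Among those that fell were stress-inducible cochaperones. Dnajb1 measured 96.6, 118 and 101 CPM at 0 h and 47.8, 54.2 and 53.5 CPM at 24 h (log2 -1.02). Bag3 measured 50.6, 42.8 and 40.3 CPM at 0 h and 19.2, 21.5 and 25.9 CPM at 24 h (log2 -1.02). The heat-shock element GAANNTTC was found before 6 of 21 of these genes with a promoter (28.6%), against 5.07% of all tested genes, and the 6 had no common direction. Hspa1a and Dnaja1 fell, Dnajb6 and Fkbp4 rose, and Hspa1b and Hspe1 did not pass. Hspa1a and Hspa1b are near-identical copies, so their counts are uncertain. Hspa1a had 39 reads at 0 h and 3 at 24 h, a ratio of 0.105 with a 95% exact counting interval of 0.0208 to 0.332, and its call was lost without KO 24 h replicate 1.

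The lists of energy metabolism had medians closer to 0. Of 28 tested genes of glucose uptake, glycolysis and lactate 7 rose and 2 fell (25% and 7.14%, median 0.17, 14 rose with library size alone). Hk2, the inducible hexokinase, measured 0.429, 1.13 and 1.88 CPM at 0 h and 22.1, 20.3 and 22.1 CPM at 24 h (log2 fold change 4.35, SE 0.333, edgeR QL, BH-adjusted p = 4.57e-15). Slc2a6 (GLUT6) measured 0, 0.646 and 0.941 CPM at 0 h and 14.3, 14.9 and 9.21 CPM at 24 h (log2 4.78), and the lactate transporter Slc16a1 rose by 1.30. The main glucose transporters did not pass as higher. Slc2a1 (GLUT1) measured 40.6, 28.7 and 38.2 CPM at 0 h and 42.3, 40.7 and 34.6 CPM at 24 h and did not pass (log2 0.13, edgeR QL, BH-adjusted p = 0.51). Slc2a3 (GLUT3) fell with 29.1, 26.5 and 36.1 CPM at 0 h and 13.2, 11.7 and 7.22 CPM at 24 h (log2 -1.48). The glycolytic genes Ldha (log2 -0.18), Gapdh (log2 -0.11) and Pkm (log2 -0.10) did not pass either. The pentose phosphate pathway had 2 of 10 tested genes higher and 3 lower (median -0.05, 0.19 with library size alone), Prps1 rising by 0.78 and Taldo1 falling by 0.68. In the TCA cycle 10 of 30 fell and the other 20 did not pass (median -0.15, 0.09 with library size alone, where 1 fell; 5 fell without KO 0 h replicate 1 and 6 without KO 24 h replicate 1). Ogdh, a subunit of the 2-oxoglutarate dehydrogenase, measured 359.7, 326 and 333 CPM at 0 h and 218, 233 and 211 CPM at 24 h (log2 -0.62). Of 75 nuclear genes of oxidative phosphorylation 27 fell and 2 rose (median -0.22, 0.02 with library size alone, where 10 fell). Ndufa3 of complex I measured 111, 117 and 119.7 CPM at 0 h and 51.4, 65.7 and 70.2 CPM at 24 h (log2 -0.90). Cox8a of complex IV measured 217, 208 and 219.7 CPM at 0 h and 131, 143 and 129 CPM at 24 h (log2 -0.68). Fatty acid oxidation had 7 of 27 lower and 1 higher (median -0.26). Cpt1a, which controls entry of fatty acids into mitochondria, measured 79.1, 146 and 102 CPM at 0 h and 47.2, 50.3 and 47.3 CPM at 24 h (log2 fold change -1.17, SE 0.155, edgeR QL, BH-adjusted p = 7.68e-07).

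Lipid genes went both ways. Of 33 tested genes of the list of cholesterol and fatty acid synthesis 12 rose and 6 fell (median 0.08). The list also holds sterol exporter genes, which are not synthesis genes, and the 6 falls include Abca1 and Abcg1. Acaca, the first step of fatty acid synthesis, measured 27.1, 21.8 and 20.7 CPM at 0 h and 64.8, 70.1 and 69.7 CPM at 24 h (log2 fold change 1.54, SE 0.13, edgeR QL, BH-adjusted p = 1.21e-13). The sterol enzymes Idi1 (log2 1.23) and Cyp51 (log2 1.01) rose. The sterol exporter gene Abca1 fell with 29.2, 31 and 24.5 CPM at 0 h and 6.04, 4.37 and 7.22 CPM at 24 h (log2 -2.29), as did Abcg1 (log2 -0.89). Of 12 tested iron genes 3 rose and 1 fell (median -0.07, 0.17 with library size alone). Tfrc, the transferrin receptor, measured 15.7, 15.5 and 16 CPM at 0 h and 99.8, 102 and 113 CPM at 24 h (log2 fold change 2.74, SE 0.126, edgeR QL, BH-adjusted p = 7.67e-23). The ferritin heavy chain gene Fth1, for iron storage, measured 667, 603 and 517 CPM at 0 h and 277, 334 and 275 CPM at 24 h (log2 -1.01). Both are known to be controlled by iron regulatory proteins, which act on them in opposite ways. A part of these proteins in the 2 RNA changes was not tested. Nucleotide synthesis had 9 of 27 tested genes higher and 7 lower (median 0.04, -0.01 with upper-quartile factors; 4 lower with library size alone). Cad, which starts pyrimidine synthesis, measured 39.3, 44.4 and 43.1 CPM at 0 h and 103, 111 and 107 CPM at 24 h (log2 fold change 1.35, SE 0.105, edgeR QL, BH-adjusted p = 8.91e-15). Rrm2, the S-phase subunit of ribonucleotide reductase, measured 19.4, 21.8 and 17.7 CPM at 0 h and 3.66, 7.86 and 4.73 CPM at 24 h (log2 -1.84).

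NAD is the cosubstrate of sirtuins and of PARP enzymes. Of 20 tested genes of NAD synthesis and use 5 rose and 4 fell, 25% and 20% and so near the background shares (median 0.13, 8 rose with library size alone). Nampt, the rate-limiting enzyme of NAD salvage, measured 36.6, 32.3 and 32.8 CPM at 0 h and 111, 126 and 141 CPM at 24 h (log2 fold change 1.88, SE 0.115, edgeR QL, BH-adjusted p = 2.24e-18). Parp14, also induced by interferon, measured 132, 139 and 136 CPM at 0 h and 534, 460.1 and 499.6 CPM at 24 h (log2 1.87) and its relative Parp9 rose by 1.73. The NAD-consuming ectoenzyme gene Cd38 fell with 12.5, 11.8 and 11.9 CPM at 0 h and 7.87, 3.84 and 5.72 CPM at 24 h (log2 -1.06). Of the 7 sirtuin genes tested, 1 fell and the other 6 did not pass. Sirt7, a nucleolar deacylase, measured 85.3, 67.6 and 75.3 CPM at 0 h and 30.2, 32.3 and 33.8 CPM at 24 h (log2 fold change -1.25, SE 0.138, edgeR QL, BH-adjusted p = 2.75e-10). Sirt1, a mainly nuclear deacetylase, measured 34.6, 45.7 and 28.1 CPM at 0 h and 27.1, 32.5 and 24.1 CPM at 24 h (log2 -0.37, edgeR QL, BH-adjusted p = 0.0834), and Sirt6 did not pass either (log2 -0.07). The tubulin list, chosen because alpha-tubulin is a Sirt2 substrate, had 3 of 13 tested genes higher and 5 lower (median -0.23, 0.01 with library size alone, where 2 fell). Tuba1a measured 153, 130.2 and 159 CPM at 0 h and 65, 72.5 and 75.9 CPM at 24 h (log2 fold change -1.06, SE 0.1, edgeR QL, BH-adjusted p = 3.63e-12). Tubb5 measured 1430.2, 1403 and 1378 CPM at 0 h and 1009.7, 1208 and 1054 CPM at 24 h (log2 -0.36, lost with library size alone) and Tubb6 rose by 2.56. Without KO 24 h replicate 1 the list had 1 higher gene, and without KO 0 h replicate 3 it had 3 lower ones. The acetyltransferase gene Atat1 passed as higher with 2.04, 4.03 and 1.88 CPM at 0 h and 8.6, 3.84 and 5.23 CPM at 24 h (log2 1.16, edgeR QL, BH-adjusted p = 0.021), a call lost without KO 0 h replicate 1, KO 0 h replicate 3 or KO 24 h replicate 1. The list of alpha-arrestins, some of which hold back glucose uptake, and of MLX regulators had 4 of 7 lower and 1 higher (median -0.49, 1 lower with library size alone). Txnip, the member with the largest fall, measured 950.4, 995 and 923 CPM at 0 h and 521, 568 and 536 CPM at 24 h (log2 fold change -0.82, SE 0.0924, edgeR QL, BH-adjusted p = 4.50e-10).

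**Figure D4:**
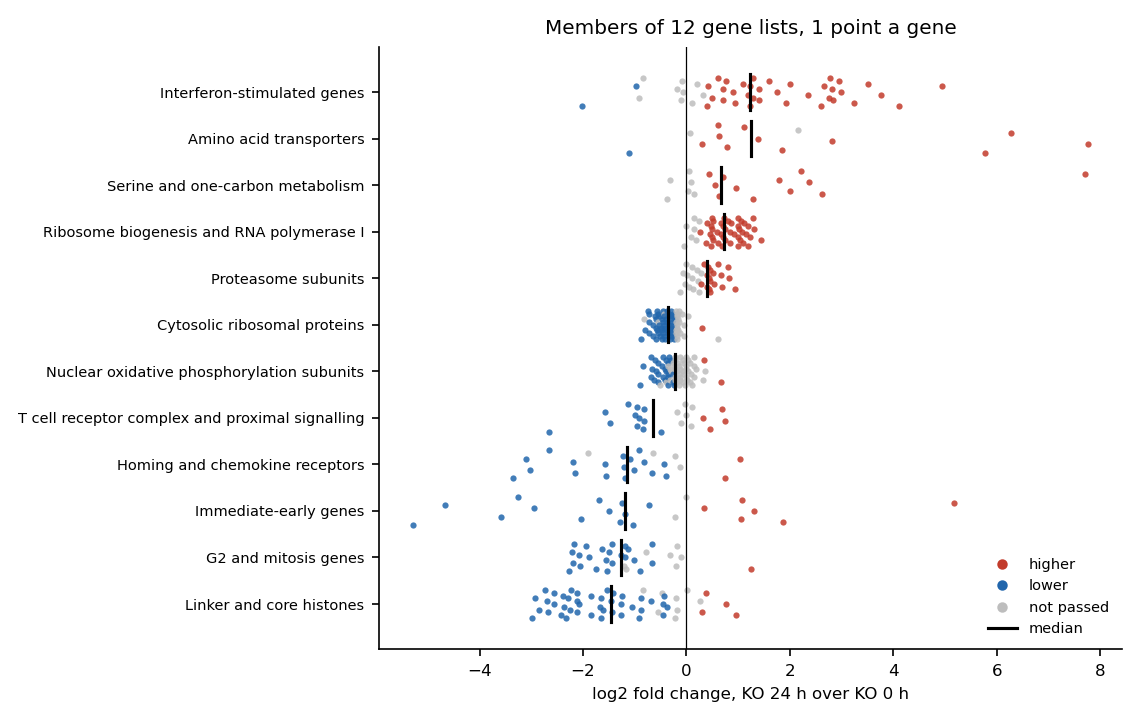
Every tested member of 12 lists is drawn as a point at its log2 fold change (24 h over 0 h in KO cells), red where it passed as higher, blue where lower and grey where it did not pass, with a black bar at the median. Most ribosome biogenesis members lie to the right of 0 and most cytosolic ribosomal proteins to the left, while interferon-stimulated genes, amino acid transporters and immediate-early genes spread widely.

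Genes of cell division were lower at 24 h than at 0 h. Of 31 tested G2 and mitosis genes 23 fell and 1 rose, with a median of -1.26. Mki67, the proliferation marker Ki-67, measured 83.1, 106 and 88.1 CPM at 0 h and 17.6, 27.8 and 20.4 CPM at 24 h (log2 fold change -2.06, SE 0.31, edgeR QL, BH-adjusted p = 0.000434). Nusap1, a spindle protein, measured 9.97, 8.07 and 8.1 CPM at 0 h and 1.83, 2.1 and 1.74 CPM at 24 h (log2 -2.19). Ube2c, which acts with the anaphase-promoting complex, measured 11.3, 14.4 and 9.23 CPM at 0 h and 2.01, 1.4 and 4.73 CPM at 24 h (log2 -2.17). Cyclin B2 (Ccnb2) measured 4.29, 6.94 and 10.5 CPM at 0 h and 0.366, 1.92 and 2.24 CPM at 24 h (log2 -2.27). The 0 h libraries were the higher ones in each of these 4 genes. The 1 member that rose was the kinetochore gene Ndc80 (log2 1.26). Foxm1, which drives the mitotic program, measured 13.2, 11.1 and 12.4 CPM at 0 h and 11.5, 9.96 and 12.7 CPM at 24 h and did not pass (log2 -0.11). Of 43 tested DNA replication and G1/S genes 6 rose and 4 fell, with a median of 0.02 (-0.02 with upper-quartile factors, and 13 higher with library size alone). Regulators of G1 were among those that moved. Cdk6 measured 13, 10.3 and 9.23 CPM at 0 h and 34.8, 29.5 and 32.8 CPM at 24 h (log2 fold change 1.55, SE 0.18, edgeR QL, BH-adjusted p = 9.46e-10). Its partner cyclin D2 (Ccnd2) measured 641, 613 and 698 CPM at 0 h and 1006, 1106 and 1113 CPM at 24 h (log2 0.72), while cyclin D3 (Ccnd3) fell by 0.58. E2f2, a brake on T cell proliferation, measured 38.1, 33.2 and 38.4 CPM at 0 h and 5.31, 13.1 and 8.21 CPM at 24 h (log2 -2.03). Pcna measured 147, 152 and 149 CPM at 0 h and 145, 169 and 166 CPM at 24 h (log2 0.10, edgeR QL, BH-adjusted p = 0.418), with overlapping times. Mcm4, of the replicative helicase, measured 139.6, 114 and 114 CPM at 0 h and 116, 136 and 121 CPM at 24 h (log2 0.02, edgeR QL, BH-adjusted p = 0.904), likewise without passing. E2F sites (TTTGGCGC or TTTCCCGC) were found before 9 of 36 of these genes (25%), against 2.79% of all tested genes, and of the 9 only Mcm5 and Mcm6 rose while the other 7 did not pass.

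Cell cycle inhibitors split, with 5 of 16 tested members higher and 8 lower (median -0.30; 5 lower with library size alone). Cdkn1a, the inhibitor p21, measured 2.9, 1.78 and 1.13 CPM at 0 h and 46.3, 55.4 and 59.7 CPM at 24 h (log2 fold change 4.68, SE 0.226, edgeR QL, BH-adjusted p = 4.57e-22). Rbl1, the pocket protein p107, rose by 1.32. Btg1, an antiproliferative gene of resting lymphocytes, measured 1374, 1502 and 1360.1 CPM at 0 h and 769, 767 and 781 CPM at 24 h (log2 -0.87). Histone genes had the lowest median of all lists with at least 7 tested members, -1.45, with 41 of 53 lower and 4 higher (2 higher without KO 24 h replicate 2). Hist1h2ab measured 18.9, 18.6 and 18.3 CPM at 0 h and 2.93, 1.92 and 2.49 CPM at 24 h (log2 fold change -2.92, SE 0.29, edgeR QL, BH-adjusted p = 1.47e-11). Hist1h3b measured 15.7, 20.8 and 20.7 CPM at 0 h and 3.66, 1.75 and 3.23 CPM at 24 h (log2 -2.73). Hist1h2ae measured 10.6, 15 and 18.3 CPM at 0 h and 0.366, 2.27 and 2.99 CPM at 24 h (log2 -3.00). Hist1h4d went the other way with 206, 191 and 202 CPM at 0 h and 284, 371 and 362 CPM at 24 h (log2 0.76), as did Hist1h2be (log2 0.96). Most of these RNAs carry no poly(A) tail, and the libraries were made from total RNA. The copies within a cluster are so alike that their single counts are uncertain. The linker histone Hist1h1c measured 198, 195 and 237 CPM at 0 h and 157, 205 and 187 CPM at 24 h and did not pass (log2 -0.20).

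Of the 12 largest falls among genes that reached 10 CPM, 5 have been described (Dtx1, Fos, Fosb, Dapl1 and Ccl5). Igj, the joining chain of secreted antibodies, measured 113, 141 and 147 CPM at 0 h and 2.38, 2.8 and 0.746 CPM at 24 h (log2 fold change -5.98, SE 0.25, edgeR QL, BH-adjusted p = 1.30e-16). Cd72, a B cell coreceptor whose exons are shared with Tesk1 for 41.6% of their length, measured 10.9, 12.7 and 9.79 CPM at 0 h and 0, 0 and 0.498 CPM at 24 h. It had 233 reads at 0 h and 2 at 24 h, a ratio of 0.0118 with a 95% exact counting interval of 0.00142 to 0.0430, which covers counting error only. Klrb1c (NK1.1) measured 18.3, 19.8 and 27.3 CPM at 0 h and 0.549, 0.874 and 0.498 CPM at 24 h (log2 -5.01). These 3 are genes of plasma cells, B cells and NK cells, and the summed levels of the B cell markers, and of the NK cell markers other than Eomes, were lower at 24 h beside them as given above. Their part in these falls was not tested. The other 4 were Slc16a5, Eya2, S100a4 and Fam211b (log2 -3.78). Slc16a5, of the monocarboxylate transporter family, measured 38.8, 32.6 and 40.3 CPM at 0 h and 1.28, 2.45 and 1.49 CPM at 24 h (log2 -4.38). Eya2, a transcriptional coactivator, measured 67.8, 47.9 and 59.9 CPM at 0 h and 3.11, 5.07 and 2.49 CPM at 24 h. S100a4, a calcium-binding protein of memory T cells and myeloid cells, measured 19.5, 17.3 and 9.6 CPM at 0 h and 0.732, 1.22 and 0.498 CPM at 24 h (log2 -4.17), with 51.7% of its exon length shared with Gm42674. Among the 12 largest rises, Pros1, the anticoagulant protein S, which activated T cells are known to make, measured 0.643, 0.484 and 0.188 CPM at 0 h and 56.2, 56.4 and 52.3 CPM at 24 h (log2 fold change 6.79, SE 0.298, edgeR QL, BH-adjusted p = 1.38e-23). Akr1c18, a progesterone-reducing enzyme, measured 0.214, 0 and 0 CPM at 0 h and 10.6, 7.34 and 13.4 CPM at 24 h. That was 2 reads against 154, a ratio of 105 with a 95% exact counting interval of 28.7 to 879. By CPM gained, Kdm6b, a histone H3 lysine 27 demethylase, measured 760.1, 694 and 571 CPM at 0 h and 1435, 1339 and 1498 CPM at 24 h (log2 1.08). Among named genes, with Rn45s set aside, Actb and Tmsb10 lost the most CPM. Actb, beta-actin, measured 23797, 21241 and 22572 CPM at 0 h and 9031, 11308 and 10092 CPM at 24 h (log2 fold change -1.15, SE 0.101, edgeR QL, BH-adjusted p = 3.24e-13). Tmsb10, which binds actin monomers, measured 10496, 8331 and 6909.9 CPM at 0 h and 2355, 3107 and 2652 CPM at 24 h (log2 fold change -1.67, SE 0.133, edgeR QL, BH-adjusted p = 1.19e-10). Tmsb4x measured 4972, 4597 and 3788 CPM at 0 h and 2174, 2745 and 2395 CPM at 24 h (log2 -0.87). Every 24 h library lay below every 0 h library in all 3, so Actb is no constant reference across these times. Shisa5 measured 4638, 4057 and 4019.7 CPM at 0 h and 1895, 2322 and 2016 CPM at 24 h (log2 -1.03).

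The response of KO cells was set beside that of WT cells, which share no library with it. In WT 4470 genes passed between 0 h and 24 h, and 3469 genes passed in both genotypes in the same direction, 78.2% of the KO calls and 77.6% of the WT calls. Of the KO calls 98.5% had the same sign in WT. Across the tested genes, which are no independent replicates, the log2 fold changes of the genotypes correlated with Pearson's r 0.871 and Spearman's rho 0.826, given as a description. The test of the difference itself, the interaction of genotype and time, passed for 1 of 10981 genes (0.00911%), Hist1h1e, the linker histone H1.4. For 575 of the 10981 genes the edgeR QL fit gave an unadjusted p below 0.05, where a share of 0.05 is due without any difference. Hist1h1e measured 171, 155 and 165 CPM at 0 h and 107, 133 and 122 CPM at 24 h in KO and 132, 122 and 149.6 CPM at 0 h and 163, 154 and 168 CPM at 24 h in WT. All KO libraries of 24 h lay below those of 0 h, and all WT libraries of 24 h above those of 0 h. The log2 fold change was -0.44 in KO and 0.26 in WT, and their difference -0.71 (BH-adjusted p = 0.0442 in the edgeR QL fit, SE 0.134). DESeq2 also gave 1 gene and edgeR 3 with no filter on low counts, while none passed in the 7 other settings of scaling, filter, block or tool. Leaving out 1 library ended the call in 10 of 12 fits, all but those without KO 24 h replicate 2 or without WT 0 h replicate 3. The fall of Hist1h1e in KO was lost with library size alone. Of its exon length 25.7% is shared with Hist1h2be and Gm11398. For the other genes named here no difference between the genotypes' responses passed. Chac1 had a fitted log2 fold change of 9.95 in KO and 6.30 in WT, values that rest on the prior count where a group has no read. A p that misses the threshold does not show that the responses are equal.

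**Figure D5:**
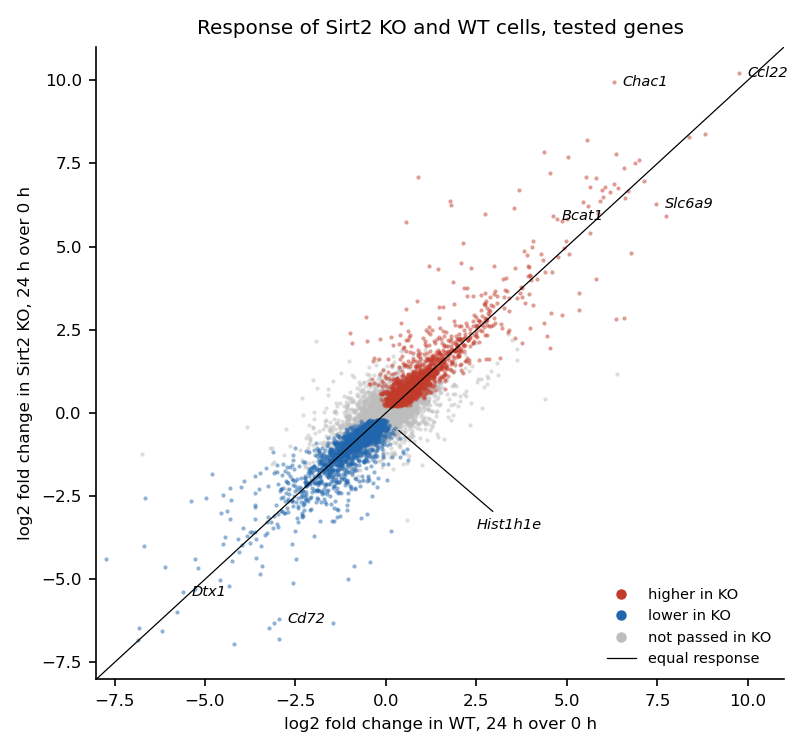
Each point is a tested gene, with its log2 fold change at 24 h over 0 h in WT cells on the horizontal axis and in Sirt2 KO cells on the vertical axis, coloured by its call in KO (red higher, blue lower, grey not passed), and the line marks an equal response. Most points follow the line (r 0.871 over 10981 genes), with Ccl22 at the upper right. Hist1h1e, the 1 gene whose interaction passed, lies close to the centre.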

How the data were processed

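Per the labels' protocols, each library started from 100 ng of total RNA, was prepared with the Ovation Mouse system of NuGen and was depleted of rRNA with probes. The deposited files hold raw read counts per gene symbol, 1 file per library, made by the authors. The submitters' processing notes name STAR 2.6.0c, DESeq and the human build hg19, while the symbols are those of mouse genes. Which program counted the reads, on which annotation and with which strand setting, is not given in the sources used here. The build of the counts is therefore open to doubt, and coordinates come only from RefSeq GRCm38.p6. Of 23479 symbols 21692 matched RefSeq directly, 1624 by 1 synonym and 163 not at all. The 5 closing entries that name no gene were left out of library sizes (no feature 26.4% to 35.4% of reads listed in the KO libraries, ambiguous 0.412% to 0.510%).

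Genes were kept with filterByExpr over the 4 groups (minimum count 10, minimum total 15). A gene with reads in only 1 group could be kept, so medians and ranks of lists rest partly on this filter. All 12 libraries entered 1 fit of 4 groups without covariates (edgeR 4.0.16, R 4.3.3, TMM factors, robust quasi-likelihood), with a biological coefficient of variation of 0.115. Contrasts were KO 24 h minus KO 0 h, the same in WT, and their difference. Benjamini-Hochberg adjustment ran over the 10981 genes kept. The scripts were tested on simulated counts. Shares of reads were compared with a two-sided exact permutation test. Genes were named by rule: per direction the 12 largest log2 changes among genes that passed, reached 10 CPM and had no overlap, the 8 largest changes in CPM (both without rRNA, microRNAs, antigen receptor segments and unnamed gene models), and of each list up to 4 members per direction that passed and up to 2 abundant ones that did not. Another 30 genes known from T cell activation were added after their values were seen: Il2, Ifng, Tnf, Il4, Csf2, Lif, Myc, Rel, Cd69, Pdcd1, Slc2a1, Ldha, Foxp3, Klf2, S1pr1, Ccr7, Tcf7, Cxcr3, Cd44, Mki67, Atf4, Mthfd2, Phgdh, Slc3a2, Irf1, Ifit3, Jun, Cblb, Npm1 and Mcl1. Members of the 49 gene lists, and the comparison itself, were chosen with earlier results of these data known, so no list is independent support. Lists are described by counts and medians, with no test. Overlap of exons was read from the GENCODE mouse annotation (M21). Alternatives were DESeq2 1.42.0, limma-voom (limma 3.58.1), other scalings and filters, KO libraries alone, a replicate block and leaving out each library. Deviations of same-numbered KO libraries of the 2 times correlated weakly (0.0477, -0.00224 and 0.0337), and those of differently numbered ones at -0.0580 to 0.0247. So few libraries cannot settle whether the numbers pair them, and the main fit treated them as unpaired. Transcripts of the mitochondrial genome are not analysed here. A few genes that the rule named are not reported here.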

Additional observations from a re-analysis of the deposited data

Results flagged for a closer look

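The linker histone gene Hist1h1e responded differently in the 2 genotypes by the test of that difference. Its log2 fold change at 24 h over 0 h was -0.44 in KO, where all 24 h libraries lay below all 0 h libraries, and 0.26 in WT, where they lay above. The difference of KO minus WT was -0.71 (edgeR QL, BH-adjusted p = 0.0442). The KO fall was lost with library size alone, and the interaction passed for no gene in 7 alternative settings and in 10 of the 12 fits that left out 1 library.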

How the results depend on the processing

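With library size alone in place of TMM factors, 3709 genes were higher at 24 h in KO and 1402 lower, 1022 were higher by a log2 of 1 or more, and WT had 3580 higher and 1468 lower. That setting reversed Cd247 (log2 0.24) and Cs, citrate synthase (log2 0.23), which then passed as higher, and ended 32 calls of the 424 named genes. It also let 38 named genes pass that had not passed, and 316 kept their direction and their side of the threshold. Of the named genes, 418 kept their direction and their side of the threshold with DESeq2 and 409 with limma-voom. Leaving out 1 of the 12 libraries at a time gave 1770 to 2357 genes higher and 1914 to 2357 lower, and 385 to 397 of the named genes kept direction and side without a KO library and 413 to 420 without a WT library. Genes with a passing interaction were 0 with RLE, upper-quartile or library-size scaling, with TMM without Rn45s and with the 1 CPM filter. They were also 0 with the replicate block and with limma-voom. DESeq2 gave 1, no filter besides 1 read gave 3, and leaving out a library gave 0 to 1. The cause of these differences was not tested. In edgeR QL 575 of 10981 genes had an unadjusted p below 0.05, where a share of 0.05 is due without any difference. With the replicate number as a block, 2123 genes were higher and 2276 lower over all libraries, and 2129 and 2154 over KO libraries only (2184 and 2216 there without the block). Deviations of same-numbered KO libraries of 0 h and 24 h correlated weakly, which does not settle whether the numbers pair them. Genes of few reads are limited by depth, with 3.63 megareads in the shallowest KO library.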
